A study of Mus musculus with 23 samples.

Results

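The Ly6 surface protein family was followed here as 7 genes, Ly6a, Ly6c1, Ly6c2, Ly6d, Ly6e, Ly6g and Ly6i, of 41388 genes in the count file. They were matched by Ensembl ID and symbol in GENCODE mouse release 21, and all 7 passed the filter on low counts that left 17148 genes tested. The 7 genes were chosen by earlier results of these libraries, in which Ly6i was among the largest rises after LPS, so every value of a member against air is a description: where calls against air are counted, beside the share of all genes called, they support nothing. The comparisons of alpha1-antitrypsin (AAT) groups with LPS alone, and of AAT groups with each other, were tested.

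Whole lungs of 23 male Balb/c mice were sequenced, with 1 library per mouse. Mice given LPS breathed an aerosol of bacterial lipopolysaccharide (0.21 mg/ml), 10 min a day for 3 days, and control mice breathed clean air for the same time. AAT, a plasma inhibitor of neutrophil elastase, was injected into the peritoneum at 4 mg/kg, 1 h after each challenge, and the experiment ended 6 h after the last dose. The groups were LPS+nAAT (native AAT, n = 5), LPS+oxAAT (oxidized AAT, n = 5), LPS+recAAT (recombinant AAT, n = 5), LPS without AAT (n = 5) and clean air (n = 3). Saline was the alternative to AAT in the protocol, without a statement of which mice received it. The age of the mice is not given in the sources used here, and the C-36 peptide of AAT was not analysed here.

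Ly6 proteins are small surface molecules built on a fold held by disulphide bonds, and most are tied to the membrane by a glycosylphosphatidylinositol (GPI) anchor. In the mouse many of their genes lie side by side on chromosome 15. Ly6a encodes Sca-1, a marker of stem and progenitor cells that endothelium also carries and that interferons induce. Ly6c1 and Ly6c2 encode the Ly6C antigens, of which Ly6c2 is the form of inflammatory monocytes and Ly6c1 is abundant in endothelium. Ly6g encodes the antigen used to mark mouse neutrophils. Ly6e is an interferon-induced protein that alters the entry of several viruses, Ly6d marks early B-lineage and squamous epithelial cells, and Ly6i is a close relative of Ly6a.

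In GRCm38, the 7 genes span 397 kb of chromosome 15 in the order Ly6d, Ly6e, Ly6i, Ly6a, Ly6c1, Ly6c2 and Ly6g. Ly6i (ENSMUSG00000022586) lies at chr15:74979534-74983430 on the minus strand, and Ly6a (ENSMUSG00000075602) is its next protein-coding neighbour, at chr15:74994877-74998031 on the same strand. Ly6c1 (ENSMUSG00000079018) lies at chr15:75044018-75048830 and Ly6c2 (ENSMUSG00000022584) at chr15:75108158-75111970, both on the minus strand. Ly6d (ENSMUSG00000034634) lies at chr15:74762056-74763620 on the minus strand, Ly6e (ENSMUSG00000022587) at chr15:74955051-74959905 on the plus strand and Ly6g (ENSMUSG00000022582) at chr15:75155240-75159126 on the plus strand. No other annotated gene overlapped any of the 7 on either strand.

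How far counts of these genes can be told apart depends on their sequence. Coding bases 61 to 120, counted from the A of the start codon, are shown because Ly6i and Ly6a do not differ in them. The stretch crosses an exon boundary and spans chr15:74981953-74982999 in Ly6i and chr15:74996519-74997544 in Ly6a. Capitals mark bases that differ from Ly6i.
Ly6i: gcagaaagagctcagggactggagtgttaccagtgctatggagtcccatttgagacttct
Ly6a: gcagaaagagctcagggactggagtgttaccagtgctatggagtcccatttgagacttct
Ly6g: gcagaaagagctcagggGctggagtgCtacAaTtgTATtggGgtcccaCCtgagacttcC
Ly6c1: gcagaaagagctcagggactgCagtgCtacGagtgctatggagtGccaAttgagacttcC
Ly6c2: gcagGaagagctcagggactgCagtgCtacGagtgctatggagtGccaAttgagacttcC
In this stretch Ly6a differed from Ly6i at 0 of 60 bases, Ly6g at 11, Ly6c1 at 6 and Ly6c2 at 7. A read lying wholly within it cannot be assigned to Ly6i or Ly6a.

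Coding bases 181 to 240, which also cross an exon boundary (chr15:74980079-74981892 in Ly6i, chr15:74995427-74996458 in Ly6a), separate the same genes. Capitals again mark differences from Ly6i. Here Ly6a differed from Ly6i at 18 bases, Ly6g at 18, and Ly6c1 and Ly6c2 at 12 each.
Ly6i: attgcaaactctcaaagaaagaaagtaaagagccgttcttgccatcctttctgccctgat
Ly6a: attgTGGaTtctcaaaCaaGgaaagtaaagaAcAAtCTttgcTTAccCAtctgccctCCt
Ly6g: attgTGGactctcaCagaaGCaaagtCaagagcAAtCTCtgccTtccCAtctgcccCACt
Ly6c1: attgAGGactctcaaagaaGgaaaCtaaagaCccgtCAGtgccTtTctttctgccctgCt
Ly6c2: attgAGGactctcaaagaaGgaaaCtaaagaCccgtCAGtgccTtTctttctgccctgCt
Ly6c1 and Ly6c2 carry the same letters over this stretch, and their longest shared coding run was 188 bases, positions 66 to 253.

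The first 60 coding bases hold 5 of the 9 coding mismatches between the 2 Ly6c genes. They are shown with capitals at the bases where Ly6c1 differs from Ly6c2, and lie in 1 exon of each gene, at chr15:75048452-75048511 for Ly6c1 and chr15:75111608-75111667 for Ly6c2.
Ly6c2: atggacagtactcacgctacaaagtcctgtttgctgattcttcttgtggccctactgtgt
Ly6c1: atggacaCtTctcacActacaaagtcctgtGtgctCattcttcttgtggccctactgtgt

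Over the whole coding sequence, Ly6c1 and Ly6c2 were identical at 97.7% of aligned positions and Ly6i and Ly6a at 86.3%. Ly6d and Ly6e shared between 49.2% and 53.4% of positions with any other member. Of all 50-base stretches of the Ly6c1 transcript, 36.7% occurred exactly in another annotated gene, as did 33.0% of those of Ly6c2, 10.0% of Ly6a, 4.97% of Ly6i, 0.45% of Ly6g and none of Ly6d or Ly6e. At 100 bases the shares were 15.3% for Ly6c1 and 15.8% for Ly6c2, and 0 for the other 5 genes. The read length is not given in the sources used here, so the share of reads that could not be placed is not known. Ly6c1 and Ly6c2 counts are uncertain for this reason.

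**Figure D1:**
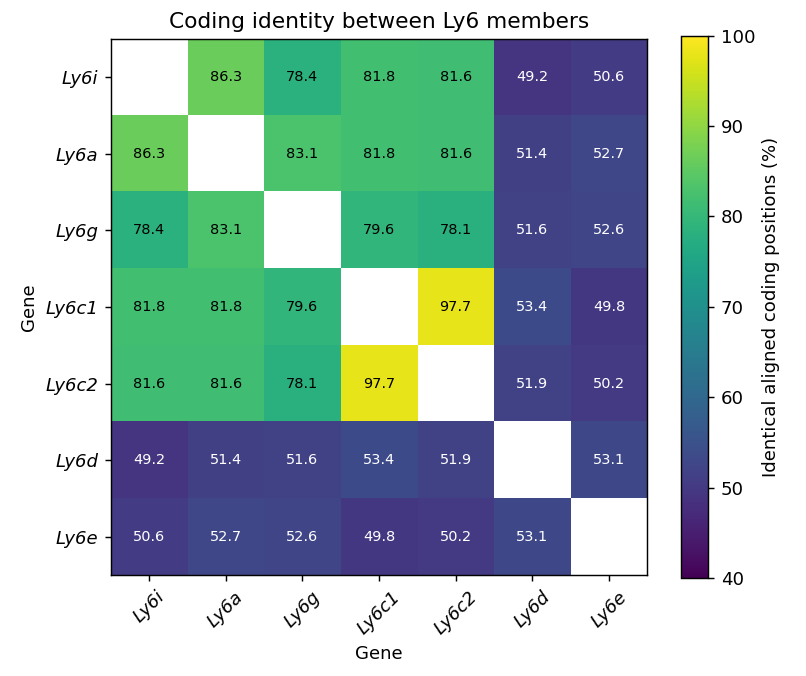
Percent of aligned coding positions that were identical between each pair of Ly6 members (colour and printed value; both axes list the 7 genes). Ly6c1 and Ly6c2 stand at 97.7%, Ly6i and Ly6a at 86.3%, and Ly6d and Ly6e between 49.2% and 53.4% with every other member.

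Libraries held between 14.8 and 47.9 M gene counts, with a median of 28.7 M. The lung labels held: summed alveolar epithelial markers (12 genes, among them surfactant genes) stood at 29334 to 40481 CPM (counts scaled to library size) and endothelial markers at 5434 to 7166 CPM. The libraries formed 2 sets that the labels do not name. Relative to mt-Nd5, reads of mt-Nd6, which mitochondria encode on the opposite strand, amounted to 0.338% to 1.14% in 15 libraries and to 3.39% to 4.50% in 8. The 8 were LPS+oxAAT mice 5103, 5104 and 5105 and all 5 LPS+recAAT mice, so an effect of recAAT rests on the LPS+oxAAT mice to be told apart from that split. When the set entered the model as a covariate, calls over all genes were 6 for LPS+oxAAT vs LPS and 0 for LPS+recAAT vs LPS, against 808 and 1456 without it. Fold changes of the members against LPS in these groups are therefore given with and without the set.

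Levels of the members differed by 3 orders of size. Per kilobase of transcript, averaged over the 23 libraries, Ly6a had 409 CPM per kb, Ly6c1 237, Ly6e 226, Ly6c2 26.4, Ly6i 5.41, Ly6d 2.78 and Ly6g 0.240. Per kilobase, Ly6a exceeded both Ly6c1 and Ly6e in 23 of 23 libraries. Without division by length Ly6e had the higher mean, 515 CPM against 390 CPM for Ly6a. The order of these 2 thus rests on the transcript lengths used, 2281 bases for Ly6e and 955 for Ly6a. Ly6c1 and Ly6e were not separated: their per-kilobase ranges were 203 to 299 and 171 to 291, and Ly6c1 was the higher in 15 of 23 libraries. Ly6c2 lay below both, and above Ly6i, in every library. Ly6i exceeded Ly6d per kilobase in 19 of 20 LPS-exposed mice and in 0 of 3 air mice. All further levels are CPM without division by length and compare 1 gene across mice.

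Ly6i levels in LPS-exposed and air lungs did not overlap. The family was chosen with this rise in view, so the gap is a description. The share of all genes without overlap is not given here. Ly6i stood at 6.35, 9.46, 5.49, 4.36 and 5.76 CPM in LPS mice, against 0.541, 0.681 and 0.491 CPM in air mice. The groups lay apart, and the lowest LPS mouse was several times the highest air mouse. Counts behind these values were 125 to 195 reads in LPS libraries and 13 to 21 in air libraries. The fitted log2 fold change was 3.43 ± 0.49 (SE), or 10.8-fold, the 10th highest of 17148 genes, and its ranks in the 3 comparisons of AAT groups with air were 12, 45 and 44 (LPS+nAAT, LPS+oxAAT and LPS+recAAT). Ly6i was at 4.51, 4.88, 4.53, 19.2 and 6.80 CPM in LPS+nAAT mice, 5.60, 4.73, 6.14, 5.81 and 8.47 CPM in LPS+oxAAT mice and 6.67, 5.69, 9.70, 6.68 and 11.4 CPM in LPS+recAAT mice. Against the same air mice the log2 fold changes were 3.77 ± 0.49 for LPS+nAAT, 3.41 ± 0.49 for LPS+oxAAT and 3.80 ± 0.49 for LPS+recAAT, and again no group overlapped air. The 4 comparisons share the 3 air libraries.

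The other 6 members overlapped between LPS and air mice. Ly6e averaged 531 ± 66.4 CPM in LPS mice and 500 ± 18.2 CPM in air mice (SD, n = 5 and 3). Ly6a averaged 404 ± 38.5 CPM in LPS mice and 385 ± 62.1 CPM in air mice. Both are known as interferon-induced genes, and their log2 fold changes were 0.09 ± 0.14 for Ly6e and 0.07 ± 0.13 for Ly6a. Ly6c1 averaged 209 ± 17.8 CPM in LPS mice and 202 ± 19.1 CPM in air mice, a log2 fold change of 0.05 ± 0.11. Ly6c2 averaged 22.4 ± 5.87 CPM in LPS mice and 21.7 ± 8.08 CPM in air mice, a log2 fold change of 0.04 ± 0.21, which was -0.22 without air mouse 2101 and 0.27 without air mouse 2105. Ly6d averaged 1.91 ± 0.218 CPM in LPS mice and 2.48 ± 0.776 CPM in air mice, a log2 fold change of -0.37 ± 0.30. Ly6g averaged 0.195 ± 0.197 CPM in LPS mice and 0.194 ± 0.198 CPM in air mice; without air mouse 2105 its log2 fold change was 1.12 ± 1.22, against -0.01 ± 0.93 with it.

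By edgeR's quasi-likelihood test at an adjusted p under 0.05, 1 of 7 members, Ly6i, was called in LPS vs air, where 4.39% of all genes tested were called. The count was also 1 of 7, Ly6i again, in LPS+nAAT vs air (5.62% of all genes), LPS+oxAAT vs air (3.76%) and LPS+recAAT vs air (6.83%). Since the members were selected on this response, nothing is read from these counts. The median log2 fold change of the 7 members in LPS vs air was 0.05, beside -0.01 for all genes tested. In whole lung, fewer cells of a type and less RNA per cell cannot be told apart.

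**Figure D2:**
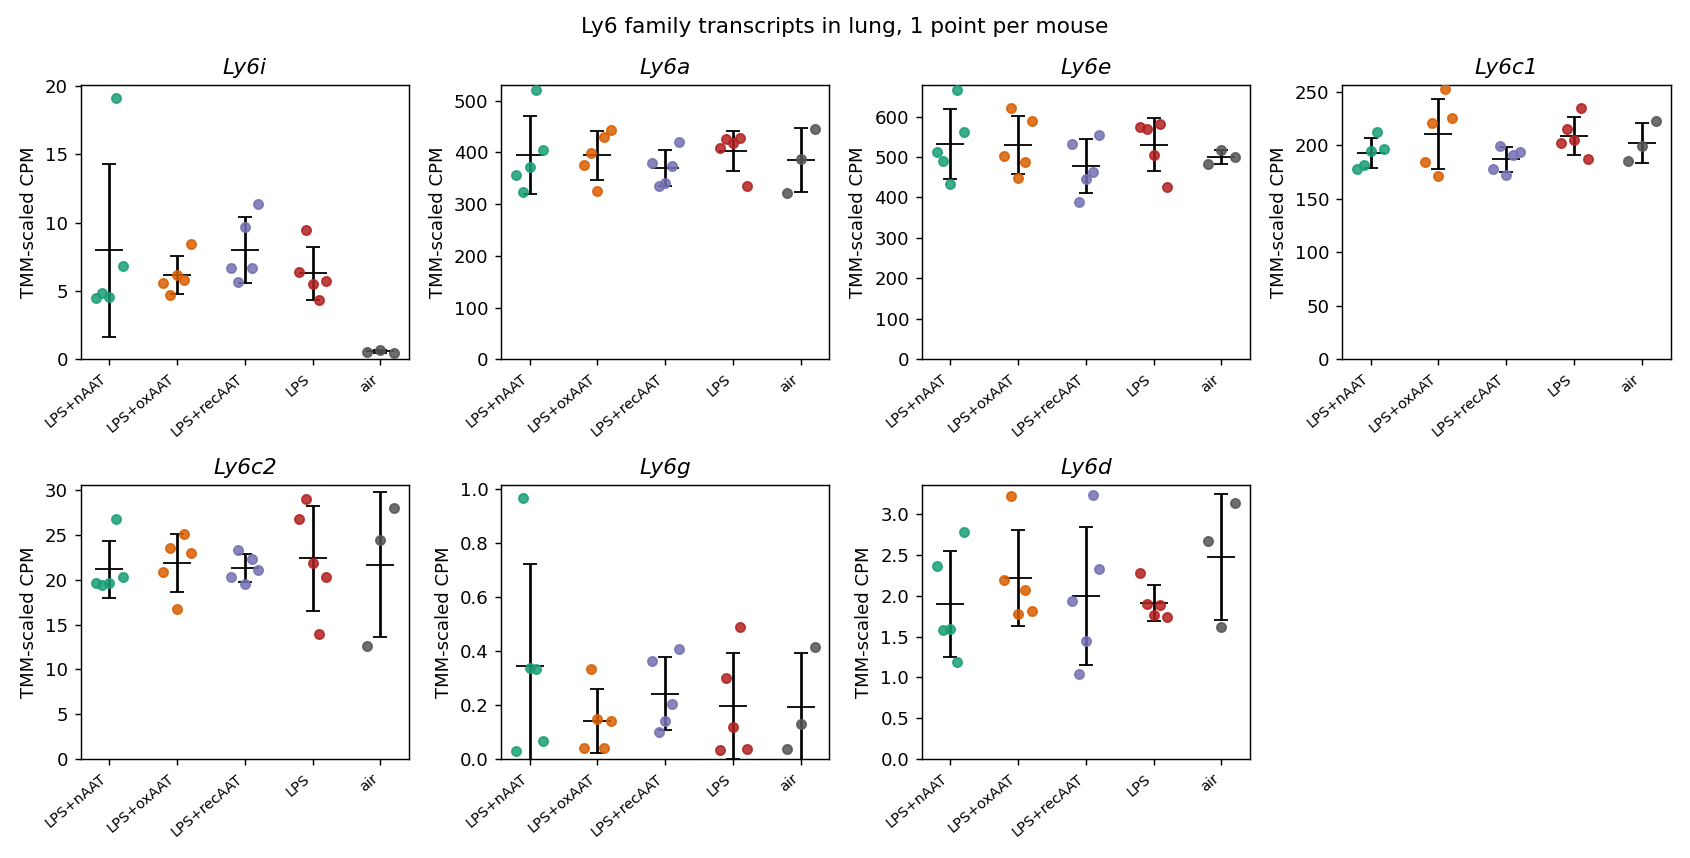
TMM-scaled CPM of each member (vertical axes, linear, starting at 0) in LPS+nAAT, LPS+oxAAT, LPS+recAAT, LPS and air mice. Points are mice, horizontal bars are means and whiskers are SD. Ly6i lies between 4.36 and 19.2 CPM in the 20 LPS-exposed mice and between 0.491 and 0.681 CPM in the 3 air mice, while the groups overlap for the other 6 genes.

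The neighbours of Ly6i on the chromosome had far smaller fold changes. Of 25 annotated genes between the first and last member, 10 were tested, of which 3 are no members. Ly6e, the nearest tested gene on one side of Ly6i, and Ly6a, the nearest on the other, had the log2 fold changes of 0.09 and 0.07 given above. The 3 further tested genes of the interval were 2010109I03Rik (-0.05 ± 0.22), Gm17189 (-0.37 ± 0.35) and Ly6k (0.67 ± 0.83), and none was called in LPS vs air. When the counts of Ly6a, Ly6c1, Ly6c2, Ly6g and Ly6i were added together, the log2 fold change of the sum was 0.07 ± 0.12 in LPS vs air, since Ly6a and Ly6c1 supply nearly all of those counts. Ly6i counts were 1.02% to 2.22% of those of Ly6a in LPS mice and 0.11% to 0.176% in air mice. Ly6a overlapped between these groups, so the ratio restates the Ly6i rise by which the family was chosen.

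**Figure D3:**
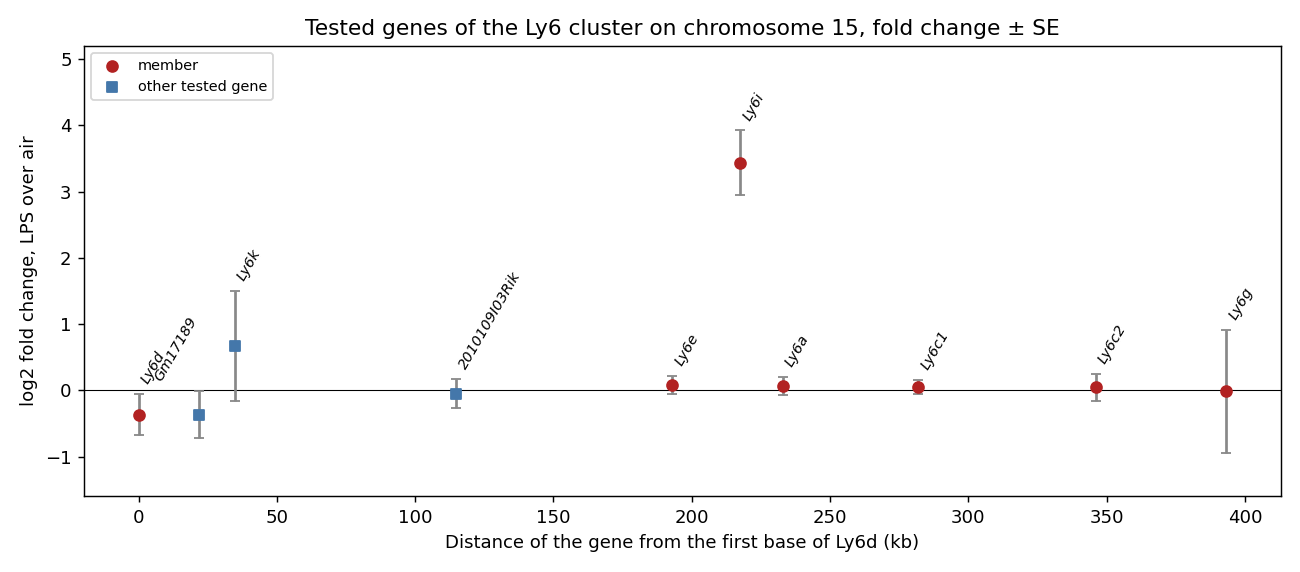
log2 fold change of LPS over air (vertical axis; whiskers are SE) for the 10 tested genes of the Ly6 interval, placed by distance in kb from the first base of Ly6d (horizontal axis). Circles are the 7 members and squares the other 3 tested genes; Ly6i stands at 3.43 and no other gene is above 0.67.

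No Ly6 member was called in the 3 comparisons of an AAT preparation with LPS alone. At the shares of all genes given below, this count does not set the family apart. By edgeR's quasi-likelihood test, 0 of 7 members were called in LPS+nAAT vs LPS (0.595% of all genes called), 0 of 7 in LPS+oxAAT vs LPS (4.71%) and 0 of 7 in LPS+recAAT vs LPS (8.49%). No member had an unadjusted p under 0.05 in any of the 3, where 2528, 3467 and 4056 of 17148 genes did. The DESeq2 Wald test also called 0 of 7 in each, where it called 436 of 15163, 1246 of 17725 and 1935 of 17213 genes. The smallest adjusted p of a member was 0.579 for LPS+nAAT, 0.681 for LPS+oxAAT and 0.296 for LPS+recAAT. With the library set as a covariate, 0 of 7 members were called in each, where 196, 6 and 0 of 17148 genes were. With so few genes called, these counts of members say little. The same 0 of 7 was found within the 15 libraries of low mt-Nd6 for LPS+nAAT vs LPS and for LPS+oxAAT vs LPS, where 2 LPS+oxAAT mice remain. Only 34 and 13 of 17179 genes were called in those 2 fits, so this too says little.

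The intervals show how large a change these data leave possible. For the 3 abundant members they were narrow. Ly6e averaged 533 ± 86.8 CPM in LPS+nAAT mice and 530 ± 72.6 CPM in LPS+oxAAT mice, against 531 ± 66.4 CPM in LPS mice (SD, n = 5 each), with 95% intervals of the log2 fold change of -0.24 to 0.25 and -0.25 to 0.24. Ly6a averaged 396 ± 75.7 CPM in LPS+nAAT mice and 394 ± 46.8 CPM in LPS+oxAAT mice, against 404 ± 38.5 CPM in LPS mice, and both intervals ran from -0.27 to 0.21. Ly6c1 averaged 193 ± 13.8 CPM in LPS+nAAT mice and 211 ± 32.9 CPM in LPS+oxAAT mice, against 209 ± 17.8 CPM in LPS mice, with intervals of -0.31 to 0.07 and -0.18 to 0.21. Under the model with the set, the LPS+oxAAT vs LPS values were 0.08 ± 0.15 for Ly6e, -0.06 ± 0.16 for Ly6a and -0.05 ± 0.12 for Ly6c1.

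LPS+recAAT gave the lowest means of the abundant members. Ly6c1 was at 178, 199, 172, 191 and 194 CPM in LPS+recAAT mice, against 202, 216, 204, 235 and 187 CPM in LPS mice. The groups overlapped, with 1 LPS mouse below 3 of the LPS+recAAT mice. Ly6c1 averaged 187 ± 11.4 CPM in LPS+recAAT mice and 209 ± 17.8 CPM in LPS mice (SD, n = 5 each), a log2 fold change of -0.16 with a 95% interval of -0.35 to 0.03. Its adjusted p by edgeR, 0.296, was the smallest of any member in the 3 comparisons with LPS, and without LPS mouse 1105 it was 0.157. With the library set as a covariate the Ly6c1 value was -0.26 ± 0.16. Ly6e averaged 477 ± 66.8 CPM in LPS+recAAT mice and 531 ± 66.4 CPM in LPS mice, with an interval of -0.40 to 0.09. Ly6a averaged 370 ± 34.6 CPM in LPS+recAAT mice and 404 ± 38.5 CPM in LPS mice, with an interval of -0.36 to 0.12. With the set, Ly6e was at -0.01 ± 0.21 and Ly6a at -0.17 ± 0.21 in LPS+recAAT vs LPS.

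For Ly6i the intervals were wider. It averaged 7.97 ± 6.32 CPM in LPS+nAAT mice, 6.15 ± 1.40 CPM in LPS+oxAAT mice and 8.03 ± 2.41 CPM in LPS+recAAT mice, against 6.28 ± 1.92 CPM in LPS mice. The log2 fold change against LPS was 0.33 for LPS+nAAT (95% interval -0.33 to 0.999), -0.02 for LPS+oxAAT (-0.69 to 0.64) and 0.37 for LPS+recAAT (-0.30 to 1.03). The LPS+nAAT value rested on mouse 4104, with 19.2 CPM: without it the log2 fold change was -0.27 ± 0.22. With the library set as a covariate, the Ly6i value was -0.28 ± 0.44 for LPS+oxAAT vs LPS and -0.04 ± 0.57 for LPS+recAAT vs LPS. Every AAT-treated mouse had more Ly6i than any air mouse, and no lowering or raising by AAT was detectable at this spread between mice.

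Ly6c2 had log2 fold changes of -0.08, -0.03 and -0.07 against LPS in LPS+nAAT, LPS+oxAAT and LPS+recAAT mice, each with an SE of 0.18. Ly6d had 0.00, 0.22 and 0.04, with SEs of 0.25 to 0.27. Ly6g had 0.92 ± 0.75 in LPS+nAAT vs LPS, -0.31 ± 0.84 in LPS+oxAAT vs LPS and 0.45 ± 0.77 in LPS+recAAT vs LPS. With 1 to 41 Ly6g reads per library, these data do not resolve even severalfold changes of Ly6g. Its LPS+nAAT value was -0.10 without mouse 4102 and 1.67 without LPS mouse 1104. In the model with the set, the values in LPS+oxAAT vs LPS and LPS+recAAT vs LPS were -0.01 ± 0.24 and -0.03 ± 0.32 for Ly6c2, 0.51 ± 0.33 and 0.57 ± 0.45 for Ly6d, and 0.11 ± 1.02 and 1.31 ± 1.45 for Ly6g.

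**Figure D4:**
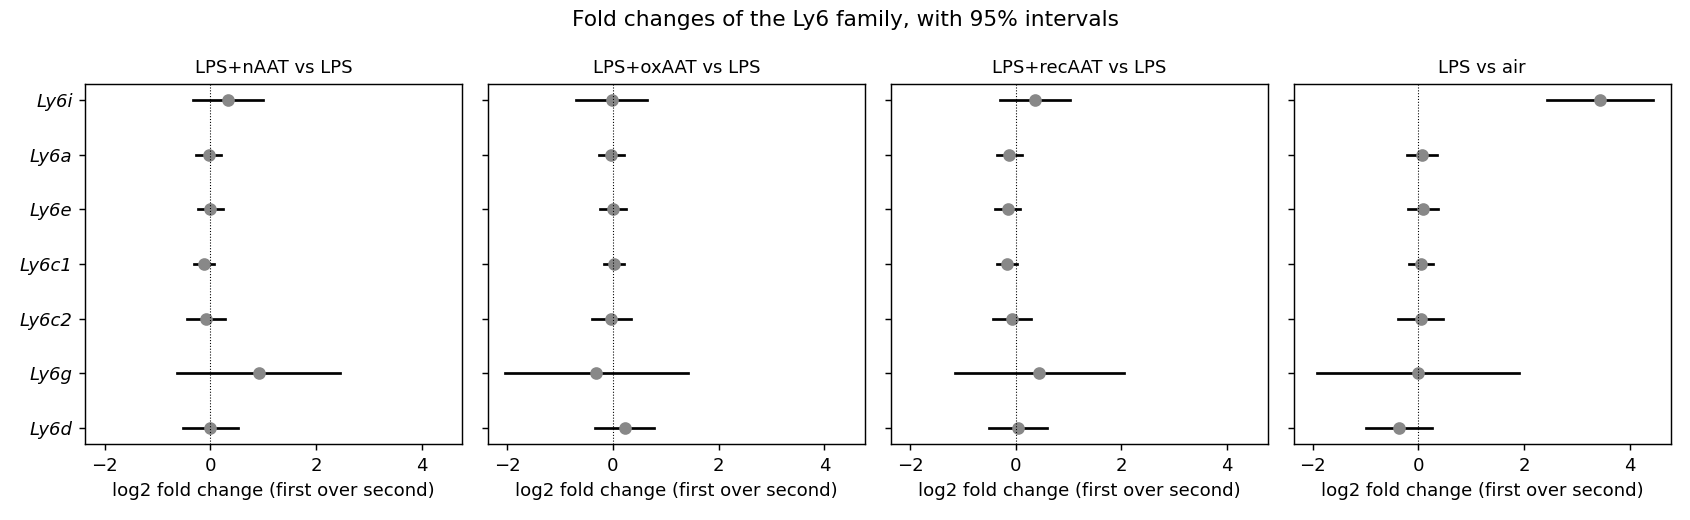
log2 fold changes (horizontal axes) of the 7 members in LPS+nAAT vs LPS, LPS+oxAAT vs LPS, LPS+recAAT vs LPS and LPS vs air, with 95% intervals as lines. Ly6i in LPS vs air, the value by which the family was chosen, stands at 3.43, and every interval of the 3 AAT comparisons includes 0.

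Between AAT preparations, members called numbered 0 of 7 in LPS+oxAAT vs LPS+nAAT (0.344% of all genes called), 0 of 7 in LPS+recAAT vs LPS+nAAT (1.93%) and 0 of 7 in LPS+recAAT vs LPS+oxAAT (0.0175%). No member had an unadjusted p under 0.05, where 2028, 2549 and 497 of 17148 genes did. The smallest edgeR adjusted p values of members were 0.552, 0.571 and 0.9999. The DESeq2 Wald test called 0 of 7 in each, where it called 245 of 19261, 600 of 19774 and 8 of 26439 genes. At such shares 0 of 7 is no trait of the members. Ly6i differed by -0.36 ± 0.32 on the log2 scale in LPS+oxAAT vs LPS+nAAT, 0.03 ± 0.32 in LPS+recAAT vs LPS+nAAT and 0.39 ± 0.32 in LPS+recAAT vs LPS+oxAAT. Without mouse 4104 the first became 0.25 ± 0.22 and the second 0.64 ± 0.22, with an edgeR adjusted p of 0.185 for the second. With all mice and the set in the model, the 3 Ly6i values were -0.61 ± 0.44, -0.37 ± 0.58 and 0.24 ± 0.38, so the direction of the second turned.

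Within groups, Ly6a, Ly6e and Ly6c1 varied together from mouse to mouse. Across the 23 mice, deviations of log2 CPM from the group means correlated between Ly6a and Ly6e with Pearson's r = 0.74 and Spearman's rho = 0.68, and r was 0.64 without the 2 mice farthest from the median of Ly6a, 4104 and 5103. Between Ly6a and Ly6c1, r was 0.75 and rho 0.77, and r was 0.70 without the same mice. The relation of Ly6a to Ly6i was looser: r was 0.58 and rho 0.39, and r was 0.27 without mouse 4104. That mouse had the highest Ly6a (521 CPM), the highest Ly6e (665 CPM) and the highest Ly6i (19.2 CPM) of all 23. Correlations of deviations were computed for all 21 pairs of members and for 105 pairs of a member with a gene list. Those printed were picked out with the data in view, describe mice that share a normalization and groups of 3 to 5, and have no p.

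**Figure D5:**
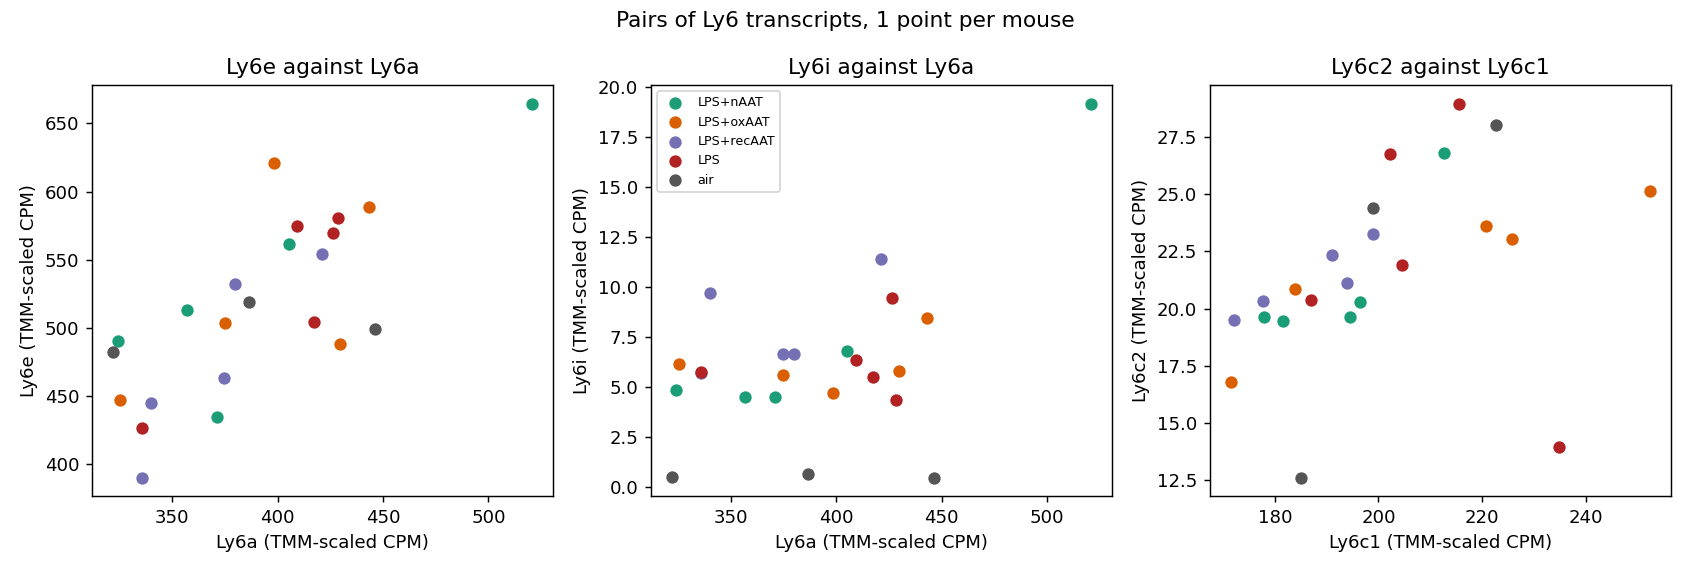
Ly6e against Ly6a, Ly6i against Ly6a and Ly6c2 against Ly6c1, all axes in TMM-scaled CPM and not starting at 0, with 1 point per mouse coloured by group. LPS+nAAT mouse 4104 is at the upper right of the first 2 panels, the 3 air mice lie at the bottom of the second, and LPS mouse 1104 and air mouse 2101 lie at 13.95 and 12.6 CPM of Ly6c2 in the third.

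Ly6c1 and Ly6c2, the 2 closest paralogs, parted in 2 mice. Ly6c2 counts were 5.94% of Ly6c1 counts in LPS mouse 1104 and 6.81% in air mouse 2101, against 9.79% to 13.4% in the other 21. Mouse 1104 had the highest Ly6c1 of its group (235 CPM) and the lowest Ly6c2 (13.95 CPM). The genes whose levels over the 23 libraries were most like Ly6c2 were Ddt (r = 0.88), Gm8909 (r = 0.88) and Vkorc1 (r = 0.85), and they were lowest in the same 2 mice. Ddt, a relative of the cytokine MIF, was at 2.34 CPM in mouse 1104 and 1.59 CPM in mouse 2101. Vkorc1, an enzyme of the vitamin K cycle, was at 0.837 CPM in mouse 1104 and 0.938 CPM in mouse 2101. What these libraries share was not tested.

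The genes most like each other member differed from member to member. Ly6a ran closest to Lgals9, a lectin (r = 0.79; 0.82 for deviations from group means), Nmi, an interferon-induced adaptor (0.75; 0.74), and Ubl4a (0.74; 0.79). Ly6e ran closest to Dhx58, an interferon-induced RNA sensor of the RIG-I family (0.80; 0.81), Mrm3 (0.79; 0.80) and Ifi35, an interferon-induced protein (0.77; 0.80). Ly6c1 ran closest to Icam2, an adhesion molecule of endothelium (0.76; 0.72), Gpx3 (0.66; 0.73) and Vtn (0.65; 0.60). Ly6d ran closest to Mustn1 (0.80; 0.83) and to the B cell genes Fcrla (0.74; 0.77) and Cd79a, a chain of the B cell receptor (0.74; 0.79). For Ly6i, the ranking over 23 mice was set by the gap between LPS-exposed and air mice that chose it, so the 3 genes it picked are no ranking of likeness within groups. Their r of deviations was 0.63 with Pigr, the receptor that carries IgA across epithelium, 0.54 with Lcn2, an iron-binding antimicrobial protein, and 0.52 with Vnn3.

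In LPS vs air, type I interferon genes were called no more often than all genes, and 4 interferon gamma-induced genes rose. In the AAT groups against air, more of the 31 type I genes rose: 4 for LPS+nAAT, 6 for LPS+oxAAT and 7 for LPS+recAAT, and 0 fell. Their list medians were 0.40, 0.51 and 0.37, and all genes were called at 5.62%, 3.76% and 6.83% there. These comparisons share the 3 air libraries, and their list values with the library set are not given here. Of 31 type I interferon-stimulated genes, 1 rose and 0 fell in LPS vs air: Isg15, a ubiquitin-like modifier, by 1.09 ± 0.27 on the log2 scale (edgeR adjusted p = 0.0169). The list's median log2 fold change was 0.23, beside -0.01 for all genes, and 13 of the 31 had an unadjusted p under 0.05. Of 22 tested interferon gamma-induced genes, 4 rose and 0 fell: the chemokine genes Cxcl10 (1.88 ± 0.23), Cxcl9 (2.0 ± 0.43) and Cxcl11 (3.36 ± 0.88), and Psmb8 (0.51 ± 0.13), an immunoproteasome subunit, with a list median of 0.26 and 10 of 22 at an unadjusted p under 0.05. All genes were called at 4.39% in this comparison, and 3097 of 17148 had an unadjusted p under 0.05. Of 15 interferon receptors and signal transducers, 0 were called in either direction, with a smallest edgeR adjusted p of 0.0990 and 4 genes at an unadjusted p under 0.05. In LPS+recAAT vs LPS, 2 of 31 type I genes rose, Ifit2 (0.53 ± 0.14) and Rsad2 (0.65 ± 0.18). In LPS+oxAAT vs LPS 1 rose, Ifit2 (0.50 ± 0.14). Neither share was above that of all genes called, 8.49% and 4.71% in those comparisons. With the library set as a covariate none of these 3 calls remained: Ifit2 was at -0.09 ± 0.20 in LPS+recAAT vs LPS and 0.10 ± 0.15 in LPS+oxAAT vs LPS, and Rsad2 at 0.22 ± 0.30 in LPS+recAAT vs LPS. Of the 31, 0 were called in LPS+nAAT vs LPS, with a smallest edgeR adjusted p of 0.272 and 1 gene at an unadjusted p under 0.05. Over all genes, 0.595% were called there, and 2528 of 17148 had an unadjusted p under 0.05.

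From mouse to mouse, Ly6i, Ly6e and Ly6a varied with the summed level of those 31 genes. Deviations of Ly6i correlated with those of the sum with r = 0.71 and rho = 0.50, and r was 0.59 without mice 1102 and 4104. For Ly6e, r was 0.71 and rho 0.73, and r was 0.63 without mice 1105 and 4104. For Ly6a, r was 0.66 and rho 0.63, and r was 0.55 without mice 4104 and 5103. Without mouse 4104 alone, r was 0.52 for Ly6i, 0.61 for Ly6e and 0.50 for Ly6a. Within the 15 libraries of low mt-Nd6, which include mouse 4104, r was 0.78 for Ly6i, 0.73 for Ly6e and 0.79 for Ly6a. The sum was 1387 CPM in LPS+nAAT mouse 4104, 1468 CPM in LPS+oxAAT mouse 5105 and 1265 CPM in LPS+recAAT mouse 6105, while LPS mice ran between 966 and 1091 CPM and air mice between 833 and 949 CPM. The list holds Dhx58 and Ifi35, named above as most like Ly6e, and no member. Against the interferon gamma-induced sum, r was 0.21 for Ly6i, 0.38 for Ly6e and 0.29 for Ly6a. Within the low mt-Nd6 libraries these were -0.07, 0.03 and 0.12, and for Ly6i r was 0.39 without mice 1102 and 4104. Positive r was not particular to the type I list. Against further Ly6 and uPAR genes, r was 0.66 for Ly6a and 0.54 for Ly6e. Against classical monocyte markers it was 0.57 for Ly6a and 0.46 for Ly6i, and against airway secretory markers 0.57 for Ly6i. Some lists went the other way, such as B cell markers with Ly6i (-0.32).

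Other genes of the same superfamily and of the anchor were mostly not called. Of 33 further Ly6 and uPAR genes listed, 17 were tested. In LPS vs air, LPS+nAAT vs LPS and LPS+oxAAT vs LPS, 0 of them were called. All genes were called at 4.39%, 0.595% and 4.71% there. The smallest edgeR adjusted p values of the 17 were 0.0845, 0.114 and 0.137. An unadjusted p under 0.05 was found for 4, 1 and 2 of the 17, and for 3097, 2528 and 3467 of all 17148 genes. In LPS+recAAT vs LPS, 1 of 17 fell: Plaur, the urokinase receptor, averaged 49.3 ± 6.35 CPM in LPS+recAAT mice and 65.2 ± 5.32 CPM in LPS mice, a log2 fold change of -0.40 ± 0.11 (edgeR adjusted p = 0.0206). Of 27 genes of GPI anchor synthesis and attachment, 0 were called in LPS vs air (1 at an unadjusted p under 0.05) and 1 rose in LPS+recAAT vs LPS, Pigm, a mannosyltransferase of anchor synthesis, by 0.46 ± 0.11 (edgeR adjusted p = 0.0132). All genes were called at 8.49% in LPS+recAAT vs LPS, a share that neither list exceeded. With the library set as a covariate neither gene was called, at -0.30 ± 0.19 for Plaur and 0.36 ± 0.20 for Pigm. Of the untested pseudogenes in the interval, I830127L07Rik, which shares 50-base stretches with Ly6i, Ly6a and Ly6c2, averaged 0.0185 CPM, and the most abundant, Gm29126, 0.178 CPM.

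Markers of the cells known to carry Ly6 antigens moved only in part. Summed neutrophil markers (21 genes) were 463 to 616 CPM in LPS mice and 356 to 426 CPM in air mice, and 3 of 19 tested rose. These were the C-type lectin genes Clec4d (log2 fold change 1.37 ± 0.14) and Clec4e (1.10 ± 0.15) and the decoy receptor gene Il1r2 (2.06 ± 0.34). The median log2 fold change of the 19 was 0.57, and 4.39% of all genes were called in LPS vs air. Mpo was at 0 in 10 of 23 libraries and Elane in 14. Ly6g, which marks the same cells, averaged 0.195 CPM in LPS mice and 0.194 CPM in air mice. Its highest value, 0.966 CPM from 41 reads, was in LPS+nAAT mouse 4102, which also had the highest neutrophil sum, 882 CPM. Deviations of Ly6g and of that sum correlated with r = 0.49, and 0.36 without mice 4101 and 4102; at these counts this is no finding.

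Summed classical monocyte markers (16 genes) were 10374 to 12302 CPM in LPS mice and 7810 to 9228 CPM in air mice, of which 1 gene was called, Hp, which rose by 0.87 ± 0.15. The list's median log2 fold change was -0.05, and most of the sum came from Lyz2 (7616 CPM in LPS mice and 5743 CPM in air mice) and Hp (2176 CPM in LPS mice and 1191 CPM in air mice). Ly6c2, the monocyte form of Ly6C, overlapped between the groups. Alveolar macrophage markers were 14 genes, of which Chil3 is also in the monocyte list and Car4 in the endothelial list. They summed to 1114 to 1384 CPM in LPS mice and 831 to 909 CPM in air mice, and 5 rose and 1 fell. Of all genes tested, 4.39% were called in this comparison. The neutrophil, monocyte and macrophage sums were higher in LPS mice than in air mice, as Ly6i was. Their part in the Ly6i difference was not tested. Endothelial markers (16 genes), of the cells that carry Ly6a and Ly6c1, summed to 5742 to 7166 CPM in LPS mice and 5720 to 6565 CPM in air mice. Deviations of that sum correlated with those of Ly6a with r = -0.01 and with those of Ly6c1 with r = 0.24 (0.16 without mice 5103 and 5104).

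Ly6d varied with markers of B cells, 1 of the 2 cell types it is known for. Deviations of Ly6d correlated with those of the 12 summed B cell markers with r = 0.76 and rho = 0.85, and r was 0.74 without mice 6102 and 6104. LPS+oxAAT mouse 5102, with 3.22 CPM of Ly6d, had the highest B cell sum, 415 CPM. Other lists also had positive r with Ly6d: 0.57 for T and NK cell markers, 0.53 for further Ly6 and uPAR genes and 0.45 for alveolar epithelial markers. For basal and squamous markers, the other known type, r was -0.08. Ly6d had 25 to 126 reads per library. Of 13 basal and squamous markers, 7 were tested, and the sum of all 13 was 3.50 to 7.46 CPM over all libraries, with Dsg3 and Sprr3 at 0 in 23 of 23. The B cell list holds Fcrla and Cd79a, named above as most like Ly6d. Of its 12 genes, 0 were called by edgeR in LPS vs air, and 3 had an unadjusted p under 0.05. Over all 17148 genes, 4.39% were called and 3097 had such a p.

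Promoter sequence from RefSeq (GRCm38.p6, windows of 300 bases around a start) was held for 3 members, Ly6c1, Ly6c2 and Ly6g, with 2 starts each, whose windows overlap. Both strands were searched for an interferon response core (GAAA, any 2 bases, GAAA), a GAS element (TTC, any 3 bases, GAA) and an NF-kB core (GGGA, any 4 bases, CC). None of the 6 windows held the first, which 3.44% of 32851 windows did, or the second, which 8.30% did. The NF-kB core was in both windows of Ly6c1 and of Ly6g and in 1 of the 2 of Ly6c2, and in 20.7% of all windows. These matches describe letters in a window and do not show a bound site.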

How the data were processed

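A strand-specific poly(A) protocol was used on lung RNA, 1 library per mouse, per the labels' protocols. The values are whole-number counts by Ensembl gene ID as deposited by the authors, not normalized. The submitters' processing notes name STAR 2.4.0.1, HTSeq 0.11.1, FastQC 0.11.8, Trimmomatic (0.36 and 0.38) and the build GRCm38. Neither the strand setting nor the annotation release is given in the sources used here. Reads on no feature (6.79% to 13.1%), ambiguous reads (1.12% to 1.39%) and reads not aligned uniquely (4.09% to 6.08%) stayed out of library sizes and tests. A read that matches 2 paralogs equally well has no unique alignment.

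Counts of 23 libraries were fitted in 1 model with a mean per group in edgeR 4.0.16 (R 4.3.3; filterByExpr, TMM factors of 0.978 to 1.028, robust dispersions, two-sided quasi-likelihood test, Benjamini-Hochberg adjustment over 17148 genes, threshold 0.05). SE is the absolute log2 fold change divided by the root of F, and 95% intervals used the t distribution. CPM are TMM-scaled, and CPM per kb use the longest protein-coding transcript of each gene. The steps were tested on simulated data. The members, gene lists and named genes (up to 4 of smallest p per list, and 3 most alike genes per member by Pearson's r of log2 CPM with a prior count of 2) were chosen with earlier results of these data known. P-values measure the spread between mice. The median r of deviations was 0.03 for mice of different groups sharing a last digit of their number (42 pairs). It was -0.03 for those with different digits (168 pairs). These medians do not exclude a block by digit. Transcripts and positions are from GENCODE 21, aligned with Biopython 1.88. Alternatives were DESeq2 1.42.0 size factors and Wald test, library totals, other filters, fits of only the groups compared, library sets, a block by last digit, leaving out each library and adding paralogs' counts.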

Additional observations from a re-analysis of the deposited data

Results flagged for a closer look

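In these libraries 3 values lay far from the other mice of their group, by the gap to the nearest mouse relative to the range of the group. They came from 28 sets of 5 mice examined, of which chance flags about 1 in 20. Ly6i was at 19.2 CPM in LPS+nAAT mouse 4104, where the next highest mouse had 6.80 CPM. Ly6c2 was at 26.8 CPM in the same mouse, where the next highest had 20.3 CPM. Ly6a was at 336 CPM in LPS mouse 1105, below the next lowest of 409 CPM.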

How the results depend on the processing

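The count of members called was 1 of 7 in each comparison with air and 0 of 7 in each of the 6 others under every alternative run. The family was chosen for the rise of Ly6i against air, so the steadiness of that call is no support for it. These were DESeq2 size factors, library totals, no filter, a stricter filter, the DESeq2 Wald test, fits of only the groups compared, the library set, the low mt-Nd6 set alone, the replicate block and leaving out each library (1 against air and 0 otherwise throughout). LPS+recAAT has no library in the low mt-Nd6 set, so that alternative was not run for it. Where few genes were called, the steady 0 of 7 says little. With the library set as a covariate, 0 genes were called in LPS+recAAT vs LPS and in LPS+recAAT vs LPS+nAAT, so 0 of 7 was fixed there. In LPS+oxAAT vs LPS+nAAT 1 gene was called with it. Across these settings the Ly6i log2 fold change was 3.25 to 3.59 in LPS vs air, 3.16 to 3.92 in LPS+nAAT vs air, 3.16 to 3.56 in LPS+oxAAT vs air and 3.40 to 3.95 in LPS+recAAT vs air. With the counts of 5 paralogs added, the Ly6i sum was no longer called, at 0.07, 0.02, 0.06 and -0.055 in those comparisons, the last reversed. That sum is mostly Ly6a and Ly6c1. The smallest adjusted p of an uncalled member under any setting was 0.157, for Ly6c1.

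Counts over all genes moved more than the members did. For LPS vs air they were 753 in the main model, 354 with only those groups, 1364 with the replicate block and 391 to 904 leaving out 1 library. For LPS+nAAT vs LPS they were 102, against 50 without a filter, 436 by DESeq2, 16 with only those groups, 196 with the set, 34 in the low set, 248 with the block and 20 to 144 leaving out 1. For LPS+oxAAT vs LPS they were 808, against 1246 by DESeq2, 15 with only those groups, 6 with the set, 13 in the low set and 167 to 1881 leaving out 1. For LPS+recAAT vs LPS they were 1456, against 0 with the set and 865 to 2316 leaving out 1. Against air they were 645 for LPS+oxAAT (414 with only those groups, 336 with the set, 251 in the low set, 392 leaving out 1) and 1171 for LPS+recAAT (278 with the set, 762 leaving out 1). For LPS+oxAAT vs LPS+nAAT they were 59 (25 without a filter, 245 by DESeq2, 10, 1 and 2 with only those groups, the set and the low set, 24 with the block, 3 to 275 leaving out 1). For LPS+recAAT vs LPS+nAAT they were 331 (600 by DESeq2, 561 with only those groups, 0 with the set, 88 leaving out 1), and for LPS+recAAT vs LPS+oxAAT 3 (8 by DESeq2, 1 with only those groups). The cause of these moves was not tested. Depth limits Ly6g, at 1 to 41 reads per library, and Ly6i in air, at 13 to 21.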
